A study of Mus musculus with 50 samples.

Results

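The 10 arrays described here came from mice that lacked Sod2 and received the high antioxidant dose, and they were ordered along their level of the stress gene Nupr1. They were 10 of the 50 arrays of the series and were chosen by their labels, which number them HKO-1 to HKO-10. Each array held RNA of frontal cortex synaptosomes, the pinched-off nerve terminals that reseal when brain is homogenized, from 1 individual mouse aged 17 to 21 days on the CD1 background. Sod2, which encodes the manganese-dependent enzyme that clears superoxide inside mitochondria, was knocked out constitutively, so every cell type carried the loss. The mice had been given 30 mg/kg of a salen manganese compound, named EUK8 in the sample titles and EUK189 in the treatment field. No other group entered any value below, so no level is set against that of a wild type or of a knockout given less compound. The question put to these arrays was how unevenly mice of 1 genotype and 1 dose differed, with Nupr1 as the yardstick, a gene picked with its spread in these data already known.

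Nupr1 encodes a small nuclear protein that cells switch on under stress, and its transcription is driven by ATF4, the factor at the centre of the integrated stress response. In that response, mitochondrial damage, misfolded protein or amino acid shortage slow general translation while the translation of ATF4 and its partners ATF5 and CHOP (Ddit3) goes up. Superoxide that SOD2 does not remove attacks iron-sulfur enzymes such as aconitase and complex II, and salen manganese compounds were made to stand in for the missing enzyme.

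The promoters of Nupr1 and of Atf5, the gene with the largest rising slope below, are shown because ATF4 acts through a short element, here searched on both strands as its core TGATGNAA, which did not overlap another motif searched. Each sequence is the 250 bases before the RefSeq start on GRCm38.p6, 5′ to 3′ on the gene's strand, with the core in capitals. Nupr1 lies on the minus strand at chr7:126625471-126625720, and Atf5, for the first of its 2 listed starts, on the minus strand at chr7:44816659-44816908.
Nupr1: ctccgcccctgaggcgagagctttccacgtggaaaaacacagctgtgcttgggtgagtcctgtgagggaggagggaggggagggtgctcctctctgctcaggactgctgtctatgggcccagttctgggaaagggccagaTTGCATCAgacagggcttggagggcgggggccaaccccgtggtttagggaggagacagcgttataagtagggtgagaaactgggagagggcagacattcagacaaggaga
Atf5: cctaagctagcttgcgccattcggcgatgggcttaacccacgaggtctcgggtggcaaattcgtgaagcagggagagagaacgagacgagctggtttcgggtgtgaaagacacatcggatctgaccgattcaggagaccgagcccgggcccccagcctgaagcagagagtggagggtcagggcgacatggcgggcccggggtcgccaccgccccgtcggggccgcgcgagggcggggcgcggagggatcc
The Nupr1 promoter held 1 such core, read on the opposite strand and starting at position -110 from the start site, and the Atf5 window held none. The core was found in 3.45% of the 32851 promoters of the same length. Counted by gene, at any of its listed promoters, the core was found in 158 of 6589 tested genes (2.40%). It was found in 6 of 180 of the falling genes described below (3.33%) and in 0 of 50 of the rising ones. These matches describe letters only.

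Nupr1 differed 7.62-fold between the lowest and the highest of these 10 mice. On the log2 scale of the normalized intensity its level was 8.20 on HKO-7, 8.93 on HKO-10, 9.20 on HKO-4, 9.23 on HKO-6, 9.57 on HKO-2, 9.98 on HKO-9, 10.27 on HKO-1, 10.36 on HKO-3, 10.76 on HKO-8 and 11.13 on HKO-5. The levels formed a gradient rather than separate clusters, since the largest gap between neighbours was 0.729, or 0.249 of the whole range of 2.93. Their standard deviation was 0.902 (n = 10) around a median of 9.77. Only 13 of the 11069 other detected probes, a detected probe being above background on at least 5 of the 10 arrays, had a larger standard deviation. The Nupr1 probe was above background on all 10 arrays.

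The Sod2 probe was itself above background on all 10 arrays, at 9.66 to 10.49 with a median of 10.10. The sources used here do not say whether the probe lies in the deleted stretch, so it does not check the genotype. Its slope on Nupr1 was 0.10 ± 0.0754 log2 units (SE, n = 10) per log2 unit of Nupr1 and did not pass the test (limma adjusted p = 0.546). With the number of probes above background as a covariate the Sod2 slope was -0.06. Hmox1, the inducible heme oxygenase that responds to oxidative stress, was above background on 1 array, HKO-1, and lay at a log2 level of 4.59 on HKO-7 and 4.87 at the median. Its slope was not fitted.

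The arrays differed in technical measures along the same axis. Of the 25697 probes, 10123 to 11792 were above background on an array, most on HKO-7 and fewest on HKO-5, which also held the lowest and the highest Nupr1. Nupr1 fell as this number rose (Pearson r = -0.828, two-sided permutation p = 0.00332, adjusted p = 0.0133 over 4 relations, n = 10, Spearman rho = -0.794, permutation p = 0.00937). Without the 2 arrays farthest from the median number, r was -0.678. Array brightness, the median raw signal of 54.1 to 76.4, showed no such relation (r = 0.0123, permutation p = 0.972, rho = 0.00606, permutation p = 1.0, r = -0.368 without the 2 farthest arrays). Position on the chip gave r = -0.531 (permutation p = 0.122, adjusted p = 0.163, rho = -0.402, permutation p = 0.249, r = -0.102 without the 2 farthest arrays). The position and the number of probes above background were themselves correlated at r = 0.795. The first principal component of the detected probes, 28.8% of the variance, also followed Nupr1 (r = -0.768, permutation p = 0.0111, adjusted p = 0.0222, rho = -0.709, permutation p = 0.0271, r = -0.488 without the 2 farthest arrays).

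**Figure D1:**
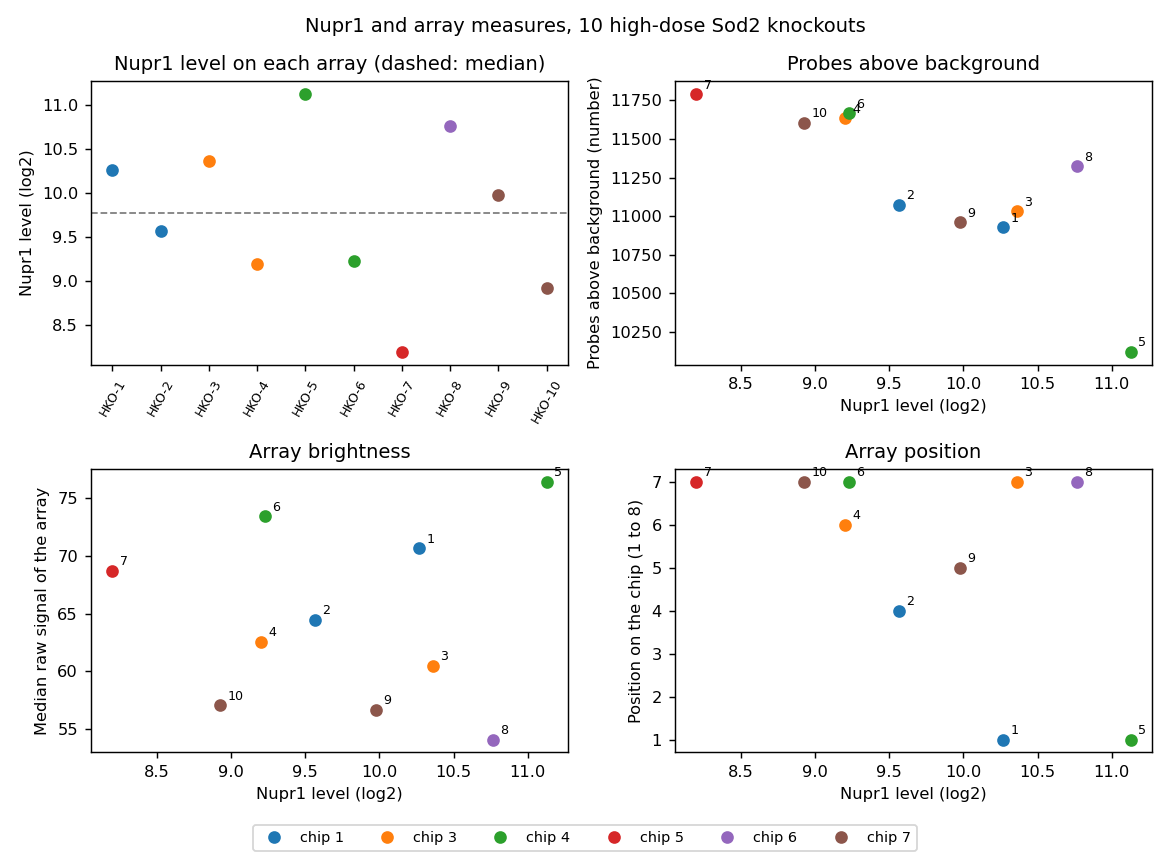
Nupr1 log2 level on each of the 10 high-dose knockout arrays, with the median dashed, and, against that level, the number of probes above background, the median raw signal and the position on the chip. Points are single mice, coloured by chip and numbered by HKO array. HKO-7 has the lowest Nupr1 and the most probes above background, HKO-5 the highest Nupr1 and the fewest.

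Along the Nupr1 gradient the stress regulator Atf5, the metabolic genes Pdk4 and Gpd1 and the detoxification gene Gstm1 were among the transcripts that rose. The sterol enzyme gene Sqle, the glutamate receptor gene Gria2 and the endoplasmic reticulum gene Wfs1 were among those that fell. Of 11069 detected probes, 334 had a slope that passed at a limma adjusted p under 0.05, or 3.02%. Of these, 66 rose with Nupr1 (0.596% of all) and 268 fell (2.42%), which made 62 rising and 242 falling genes. With 1 probe per gene, as in the gene lists below, 3.19% of 8455 genes passed. The median slope was 0.33 among the rising probes and -0.40 among the falling ones, in log2 units of the transcript per log2 unit of Nupr1. Scaling by array medians in place of quantile normalization gave 10 rising and 662 falling probes, so 98.5% of its calls fell, against 80.2% with quantile normalization. The median slope of all detected probes was -0.08 with median scaling and 0.01 with quantile normalization, so median scaling moved the whole set down.

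The count rested on few mice and moved with the array measures. Without HKO-7, 0 probes passed in limma (1409 at an unadjusted p under 0.05, smallest adjusted p 0.0622), and without both HKO-7 and HKO-5 also 0 (1070 unadjusted, smallest 0.0950). Leaving out HKO-2 gave 571 calls, HKO-3 211, HKO-5 124, HKO-6 201 and HKO-10 120. With the number of probes above background as a covariate 0 probes passed (515 unadjusted), and with position on the chip 2 passed, Atf5 and Sqle. With 10 arrays, the Nupr1 gradient and the number of probes above background cannot be told apart. All 334 probes kept the sign of their slope under every alternative in which they were tested.

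**Figure D2:**
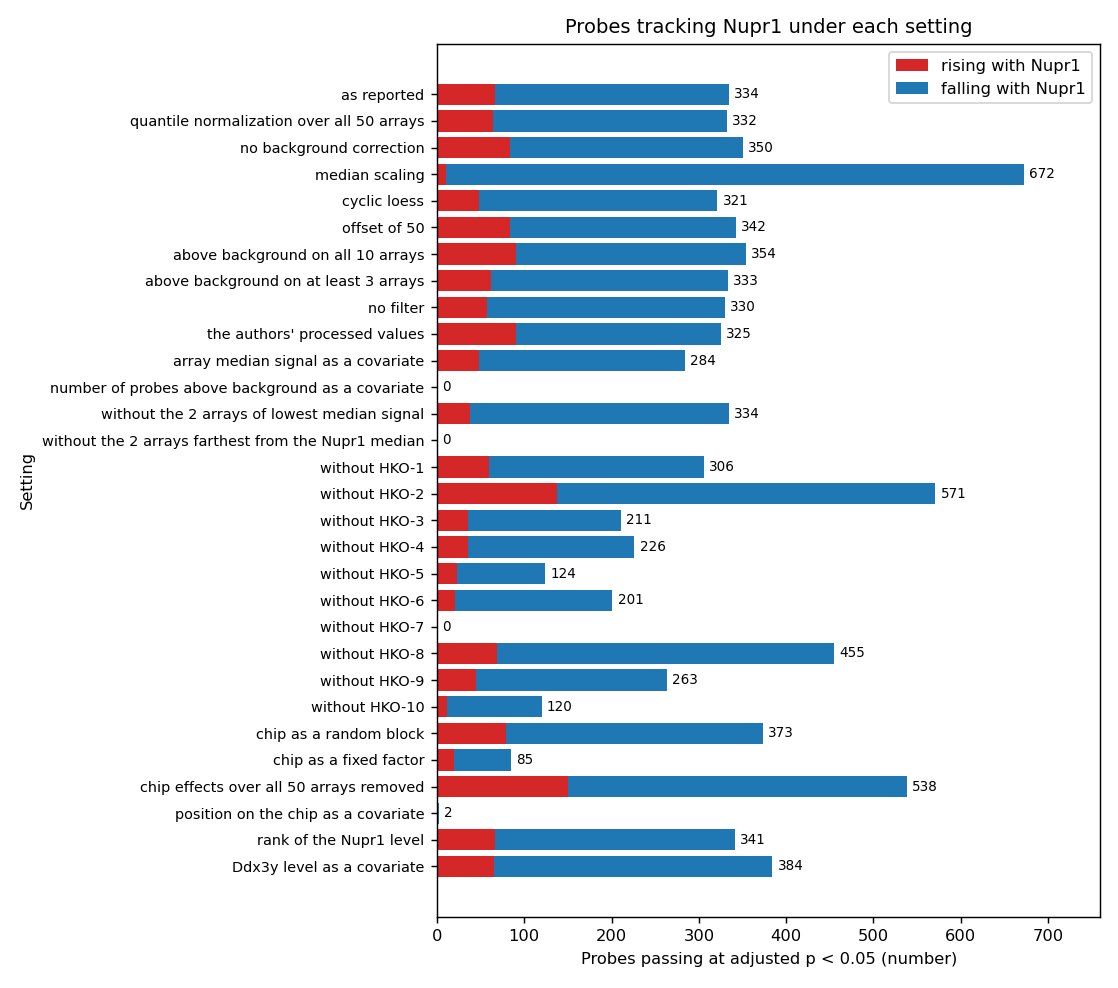
Number of probes that passed at an adjusted p under 0.05 under each setting, split into probes rising (red) and falling (blue) with Nupr1. The bars run from 0 calls, without HKO-7, without the 2 arrays farthest from the Nupr1 median or with the number of probes above background as a covariate, to 672 calls with median scaling.

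Chips offered a comparison of neighbouring arrays, because 4 chips carried 2 of the 10 mice each. On chip 4 all 334 called probes differed in the direction of their slope between HKO-5 and HKO-6, whose Nupr1 levels were 1.90 apart, as did 76.6% of all probes. The share of called probes was 99.1% on chip 3 and 97.9% on chip 7, beside 69.8% and 66.5% of all probes. On chip 1, where HKO-1 and HKO-2 were only 0.702 apart, it was 60.5% beside 55.2% of all probes. These arrays also entered the fit, so the shares describe the calls and are no second test. On each of the 4 chips the mouse with more Nupr1 had fewer probes above background, with differences of -145 to -1543 probes. With chip as a fixed factor, which leaves 3 residual degrees of freedom, 85 probes passed, 19 rising and 66 falling.

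Among stress regulators, Atf5 tracked Nupr1 most closely. Atf5, a transcription factor of the ATF4 family that guards mitochondrial protein balance, ranged over log2 levels of 7.04 on HKO-7, a median of 8.01 and 9.02 on HKO-5. The 4 mice lowest in Nupr1 and HKO-2 had Atf5 levels of 7.90 or less, and the other 5 had 8.13 or more. Its slope was 0.72 ± 0.0986 (SE, n = 10, limma adjusted p = 0.00667), with r = 0.912 (permutation p = 0.00034), rho = 0.903 (permutation p = 0.00094) and r = 0.842 without the 2 mice farthest in Nupr1. Atf5 rose with Nupr1 on 4 of 4 chips, by 0.72 to 1.37. The slope was 0.85 with position as a covariate (adjusted p = 0.0106), 0.83 with the number of probes above background (adjusted p = 0.888) and 0.74 without HKO-7 (adjusted p = 0.0622).

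Other members of the ATF4 and integrated stress response list were mixed. Of 38 listed genes 27 were detected, of which Atf5 rose and 2 fell, and the median r was 0.306, beside 0.0457 over all detected genes, where 0.627% rose and 2.57% fell. The genes that fell were Vldlr, a receptor of reelin and lipoproteins, with a slope of -0.34 (adjusted p = 0.0311), and Slc1a4, a carrier of neutral amino acids, with a slope of -0.30 (adjusted p = 0.0455). Atf4 itself had a slope of 0.12 (adjusted p = 0.455). Ddit3, the pro-apoptotic partner CHOP, was read by 2 probes of like slope, 0.28 ± 0.0883 for the brighter (adjusted p = 0.107) and 0.36 ± 0.0784 for the dimmer (SE, adjusted p = 0.0227), a gene picked out after its values were seen. Asns and Chac1, an asparagine synthetase and a glutathione-degrading enzyme that are textbook ATF4 targets, had slopes of -0.06 and 0.17 and did not pass. Atf3, Trib3 and Gdf15 were above background on at most 3 of 10 arrays and were not tested.

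**Figure D3:**
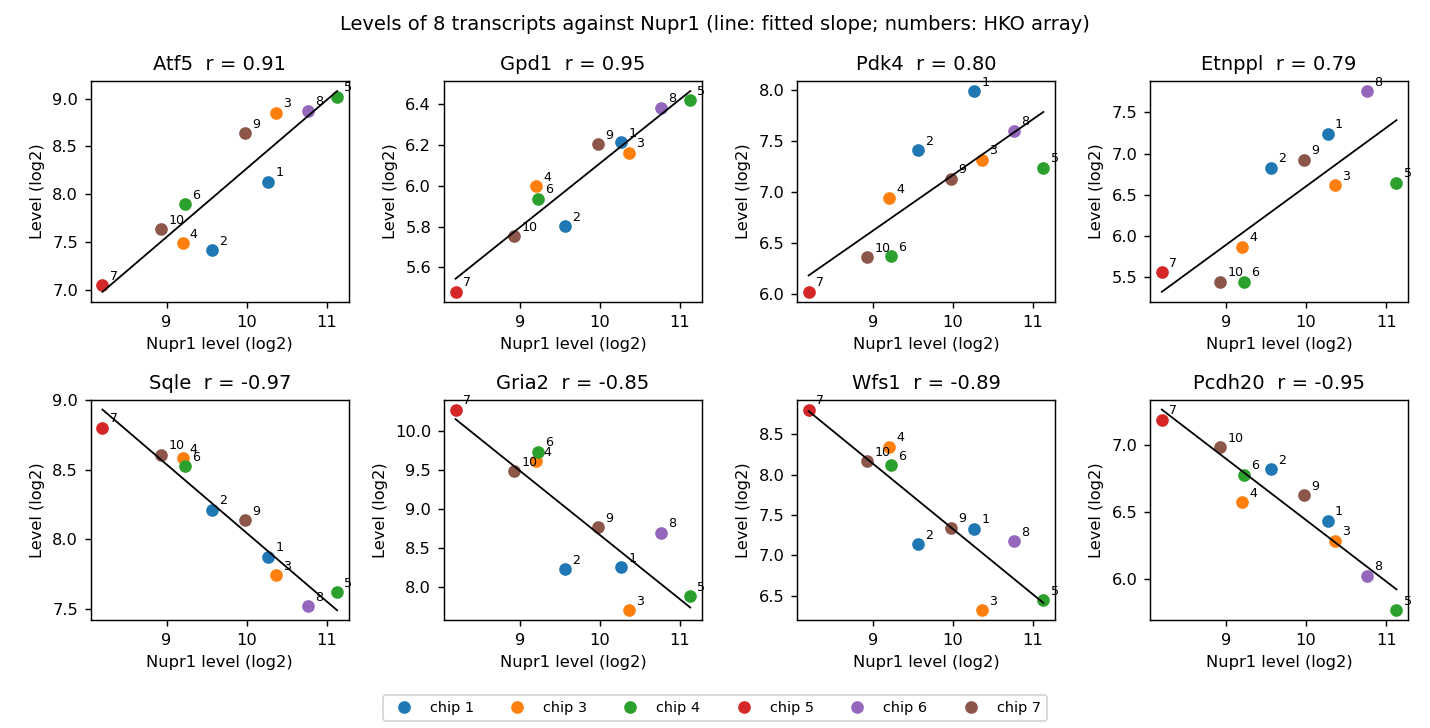
Log2 levels of 8 transcripts against the Nupr1 log2 level over the 10 high-dose knockouts, coloured by chip and numbered by HKO array, with the fitted line. Atf5, Gpd1, Pdk4 and Etnppl rise and Sqle, Gria2, Wfs1 and Pcdh20 fall, and r is printed above each panel.

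Genes of fuel handling mostly had a positive r. Of 29 listed genes of fatty acid oxidation and ketone handling 23 were detected, 20 of them lay on the positive side, and the median r was 0.651, or 0.323 with median scaling. Pdk4 and Acaa2 rose, 2 of 23 genes beside 0.627% of all. Pdk4, the kinase that inhibits pyruvate dehydrogenase when fat is burned, was 6.02 on HKO-7, 7.18 at the median and 7.99 on HKO-1. Its highest level was thus not on the mouse with the most Nupr1, and its slope was 0.55 ± 0.119 (SE, n = 10, limma adjusted p = 0.0221). Acaa2, the last enzyme of mitochondrial beta-oxidation, had a slope of 0.33 with both of its called probes, while the other 2 of its 4 probes did not pass. The other listed members did not pass, among them Cpt2 at a slope of 0.33 (adjusted p = 0.069) and Plin4, which coats lipid droplets, at 0.75 (adjusted p = 0.0541).

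Other genes of metabolism were named for their high r or large slope. Gpd1, the cytosolic enzyme that links glycolysis to glycerol lipids, had the highest r of all named genes at 0.952, with levels of 5.48 on HKO-7, 6.08 at the median and 6.42 on HKO-5 and a slope of 0.31 ± 0.0589 (adjusted p = 0.0131). Its whole range was thus under 1 log2 unit, though it was above background on all 10 arrays. Slc25a34, a member of the mitochondrial carrier family, had a slope of 0.58 (adjusted p = 0.00919). Mocs1, of molybdenum cofactor synthesis, had a slope of 0.23 (adjusted p = 0.0401), and Tspo, a cholesterol-binding protein of the outer mitochondrial membrane, one of 0.31 (adjusted p = 0.0188). Tspo is also a marker of glia, and its levels ran only from 5.64 to 6.47. Idh3g, a subunit of the isocitrate dehydrogenase of the citric acid cycle, had an r of 0.948 but a slope of 0.19 that did not pass (adjusted p = 0.0744). With the number of probes above background the r of Idh3g was -0.924.

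Among the listed NRF2 targets, the detoxification genes Gstm1 and Ephx1 rose. The NRF2 target list had a median r of 0.40, or 0.119 with median scaling, over 21 detected of 32 genes, 18 of them positive. Of the 21, 2 rose and 0 fell, beside 0.627% and 2.57% of all genes. Gstm1, a glutathione transferase, was 9.96 on HKO-10, 10.91 at the median and 11.73 on HKO-3, with a slope of 0.50 ± 0.112 (SE, n = 10, limma adjusted p = 0.0245). Ephx1, the microsomal epoxide hydrolase, was 6.47, 6.85 and 7.58 at the lowest, the median and the highest mouse, with a slope of 0.34 (adjusted p = 0.0244). Gclm, the regulatory subunit of glutathione synthesis, had a slope of 0.25 (adjusted p = 0.0957), and Nqo1, a quinone reductase, one of 0.04. Whether the Gstm1 probe also binds its near-identical mu-class relatives was not tested. Adh5, which breaks down formaldehyde and nitrosoglutathione adducts, lay outside the list and had a slope of 0.26 (adjusted p = 0.0297).

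Glucocorticoid-responsive genes had a median r of 0.516 over 22 detected of 29 genes, with 21 positive. Of the 22, 2 rose, Pdk4 and Dusp1, beside 0.627% of all genes. Dusp1, a phosphatase that ends MAP kinase signals and is also an immediate early gene, had a slope of 0.31 (adjusted p = 0.0461). It was the only one of 14 detected immediate early genes to pass, beside 3.19% of all genes. Tsc22d3 and Fkbp5, which textbooks give as targets of the glucocorticoid receptor, had slopes of 0.45 and 0.41 and did not pass (adjusted p = 0.133 and 0.294).

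Most astrocyte markers had a positive r. Of 21 markers 19 were detected and 16 were positive, with a median of 0.389, or 0.107 with median scaling. Etnppl and Slc1a2 rose, 2 of 19 beside 0.627% of all genes. Etnppl, an ethanolamine phosphate lyase enriched in astrocytes, was 5.44 on HKO-10, 6.63 at the median and 7.76 on HKO-8. Its slope was 0.71 ± 0.151 (SE, n = 10, limma adjusted p = 0.0211), and its other probe gave 0.64 (adjusted p = 0.0565). Slc1a2, the main glutamate transporter of astrocytes, had a slope of 0.24 (adjusted p = 0.0474). The mean log2 level of the 19 markers ran from 9.08 to 9.53 over the mice. Astrocyte markers such as Gfap, Aqp4 and Gja1 had slopes of 0.19, -0.03 and 0.03 and did not pass. In tissue of this kind, more astrocyte material and more transcript per astrocyte cannot be told apart, and the part of astrocyte material in the rising genes was not tested.

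Sqle, the squalene epoxidase of cholesterol synthesis, had the strongest relation to Nupr1 of all genes named. Its level was 8.80 on HKO-7, 8.18 at the median and 7.52 on HKO-8, and the order of mice by Sqle was nearly the reverse of that by Nupr1. Sqle fell with a slope of -0.49 ± 0.0619 (SE, n = 10, limma adjusted p = 0.00667), with r = -0.969 and rho = -0.988 (permutation p = 1e-05 for both, the smallest that the resamples can give) and r = -0.987 without the 2 mice farthest in Nupr1. Its slope was -0.52 with position as a covariate (adjusted p = 0.0357), -0.55 with the number of probes above background (adjusted p = 0.660) and -0.54 without HKO-7 (adjusted p = 0.0622). The rest of its pathway did not pass: the cholesterol synthesis list had a median r of -0.204 over 17 detected genes, or -0.630 with median scaling. Over all genes 3.19% passed. Hmgcs1 had a slope of -0.14 and Dhcr7 one of -0.20 (adjusted p = 0.451 and 0.119). Elovl6, which lengthens fatty acids and is no member of that list, fell with a slope of -0.39 (adjusted p = 0.00919).

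**Figure D4:**
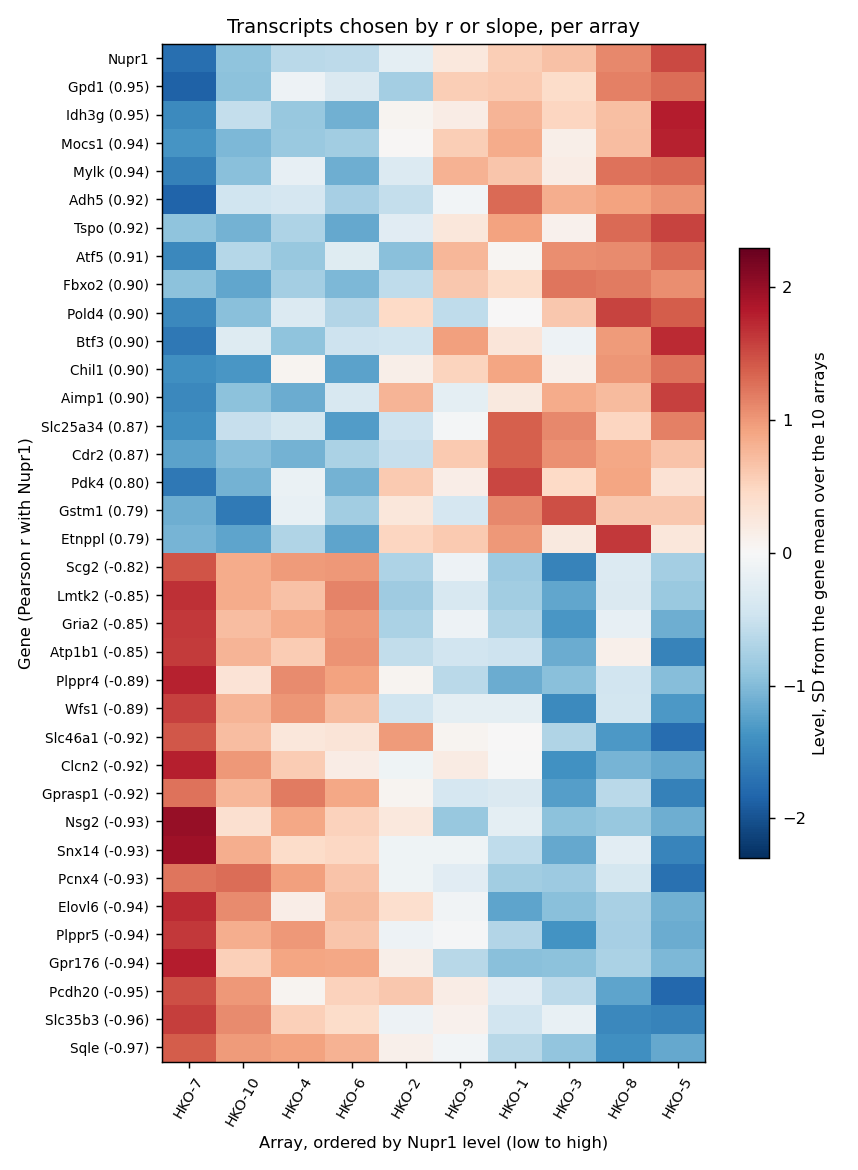
Levels of Nupr1 and of the transcripts with the highest or lowest r or the largest slopes on the 10 mice, ordered from low to high Nupr1, in standard deviations from each gene's mean over the 10 arrays. Because the rows were chosen by r or slope, the gradient from HKO-7 to HKO-5 is built in. HKO-7 stands out at the low end, and HKO-3 is lower than HKO-8 in Gria2 and Wfs1.

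Some receptors and release proteins of the synapse fell with Nupr1. Gria2, the AMPA receptor subunit that sets calcium permeability, had the steepest falling slope. Its level was 10.27 on HKO-7, 8.72 at the median and 7.69 on HKO-3, with a slope of -0.82 ± 0.14 (SE, n = 10, limma adjusted p = 0.00919), and its second probe gave -0.70 (adjusted p = 0.00941). The 4 mice lowest in Nupr1 held the 4 highest levels of the brighter Gria2 probe. With the number of probes above background as a covariate its slope was -0.48. On chip 1 the levels of the brighter probe differed by 0.03, and the sign there was opposite to the slope. Wfs1, Nlgn2, Syt1, Pdia3, Reln, Atp1b1 and Lmtk2, described below, were among others also opposite there, Reln by 0.51. Of the 268 falling probes, 145 had the sign of their slope on chip 1.

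The postsynaptic density list had a median r of -0.453 over 20 detected of 30 genes, 16 of them negative. Gria2 and Nlgn2 fell, 2 of 20 beside 2.57% of all genes. Nlgn2, the neuroligin of inhibitory synapses, had a slope of -0.36 (adjusted p = 0.0278), whereas Dlg4, the scaffold PSD-95, had one of -0.05 and Grin1 one of 0.12, and neither passed. In the presynaptic list the median r was -0.224 over 24 detected genes, or -0.545 with median scaling. Syt1 and Slc17a6 fell, 2 of 24 beside the same 2.57%. Syt1, the calcium sensor of vesicle release, was 10.49 on HKO-7 and 8.36 on HKO-9, with a slope of -0.64 (adjusted p = 0.0267), or -0.18 with the number of probes above background as a covariate. Slc17a6, the vesicular glutamate transporter VGLUT2, had a slope of -0.48 (adjusted p = 0.0224), while Slc17a7, the cortical transporter VGLUT1, had one of -0.18 and did not pass (adjusted p = 0.440). Syn1 and Vamp2, also of the vesicle, had slopes of -0.07 and 0.09 and did not pass.

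Wfs1 and Pdia3, of the endoplasmic reticulum, also fell. Wfs1, a membrane protein of the endoplasmic reticulum that handles calcium and stress there, was 8.81 on HKO-7, 7.34 at the median and 6.32 on HKO-3, with a slope of -0.81 ± 0.118 (SE, n = 10, limma adjusted p = 0.00667). Of the 20 listed chaperones of that compartment 13 were detected, 11 had a negative r and the median was -0.580. Pdia3, a disulfide isomerase, was the only one of the 13 to fall (slope -0.38, adjusted p = 0.0307), beside 2.57% of all genes. The folding helpers Hsp90b1 and Calr had slopes of -0.27 and -0.23 and did not pass. Scg2, a granule protein of neurons, had a slope of -0.67 (adjusted p = 0.0151). All 4 probes of Pcsk2, the protease that processes neuropeptides, fell with slopes of -0.38 to -0.55, a gene picked out after its values were seen.

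Reln, the extracellular signal of Cajal-Retzius cells and interneurons, was 10.04 on HKO-7, 8.97 at the median and 7.87 on HKO-5, and fell with a slope of -0.63 (adjusted p = 0.0177). Its receptor gene Vldlr fell too, at all 3 probes. Pcdh20, a protocadherin, had r = -0.949 and a slope of -0.46, and Plppr4 and Plppr5, membrane proteins related to lipid phosphatases, had slopes of -0.75 and -0.50 (adjusted p = 0.00667 for these 3). Plppr4 was above background on 8 of the 10 arrays, so its slope rests in part on levels at background. Atp1b1, the beta subunit of the sodium pump, had a slope of -0.68 (adjusted p = 0.0093) and Lmtk2, a membrane kinase, one of -0.69 (adjusted p = 0.00946). Atp1b1, Reln, Syt1 and Pdia3 had a larger r with the number of probes above background (0.921, 0.888, 0.851 and 0.826) than with Nupr1 (-0.855, -0.813, -0.771 and -0.807), differences that were not tested. With that number as a covariate the slopes of Atp1b1, Reln and Pdia3 were -0.23, -0.19 and -0.19. Slopes also shrank by over 1.5 times for Ephx1, Mocs1, Slc1a4, Lmtk2 and Kcnc1, to 0.22, 0.14, -0.20, -0.46 and -0.22. The same held for Idh3g, from 0.19 to 0.12, and for Pcnx4, another falling gene, from -0.39 to -0.22. Among interneuron markers Reln and Kcnc1 fell, 2 of 12 detected beside 2.57% of all genes, while Pvalb, at a slope of 0.20, and Sst, at -0.23, did not pass.

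Respiratory chain, ribosomal and cell type genes showed no called member in most lists, beside 3.19% of all genes that passed. Lists of 6 to 50 genes are too short for a count of 0 to set them apart from that share. Complex I had a median r of 0.425 over 32 detected subunits, but -0.0899 with median scaling, and 0 passed. Ribosomal proteins of the cytosol had a median r of 0.369 over 50 genes, but -0.0197 with median scaling, and 0 passed. Markers of microglia and of oligodendrocytes had medians of 0.153 and 0.213, both below 0 with median scaling, with 0 called of 20 and 13. Other cell type lists lay lower. Striatal markers had a median r of -0.557 (5 of 7 negative) and oligodendrocyte precursor markers -0.482 (5 of 6), with 0 called in both. Interneuron markers had -0.431 (10 of 12 negative) and excitatory neuron markers -0.258 (7 of 11). Endothelial and meningeal lists had medians of 0.123 and -0.0424. The part of cell type make-up in the gradient was not tested. With median scaling the ATF4 list's median was 0.00853. That scaling also moved the median slope of all probes down, from 0.01 to -0.08. The median r of all genes was not taken with median scaling, so these list medians lack their baseline. Medians of the ATF4, NRF2, fatty acid, glucocorticoid and astrocyte lists stayed positive, and those of the postsynaptic, presynaptic, chaperone and cholesterol lists negative, under each normalization tried. No list median was taken with the number of probes above background, the position or the chip in the model. Whether the lists keep their side under those settings was not tested.

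**Figure D5:**
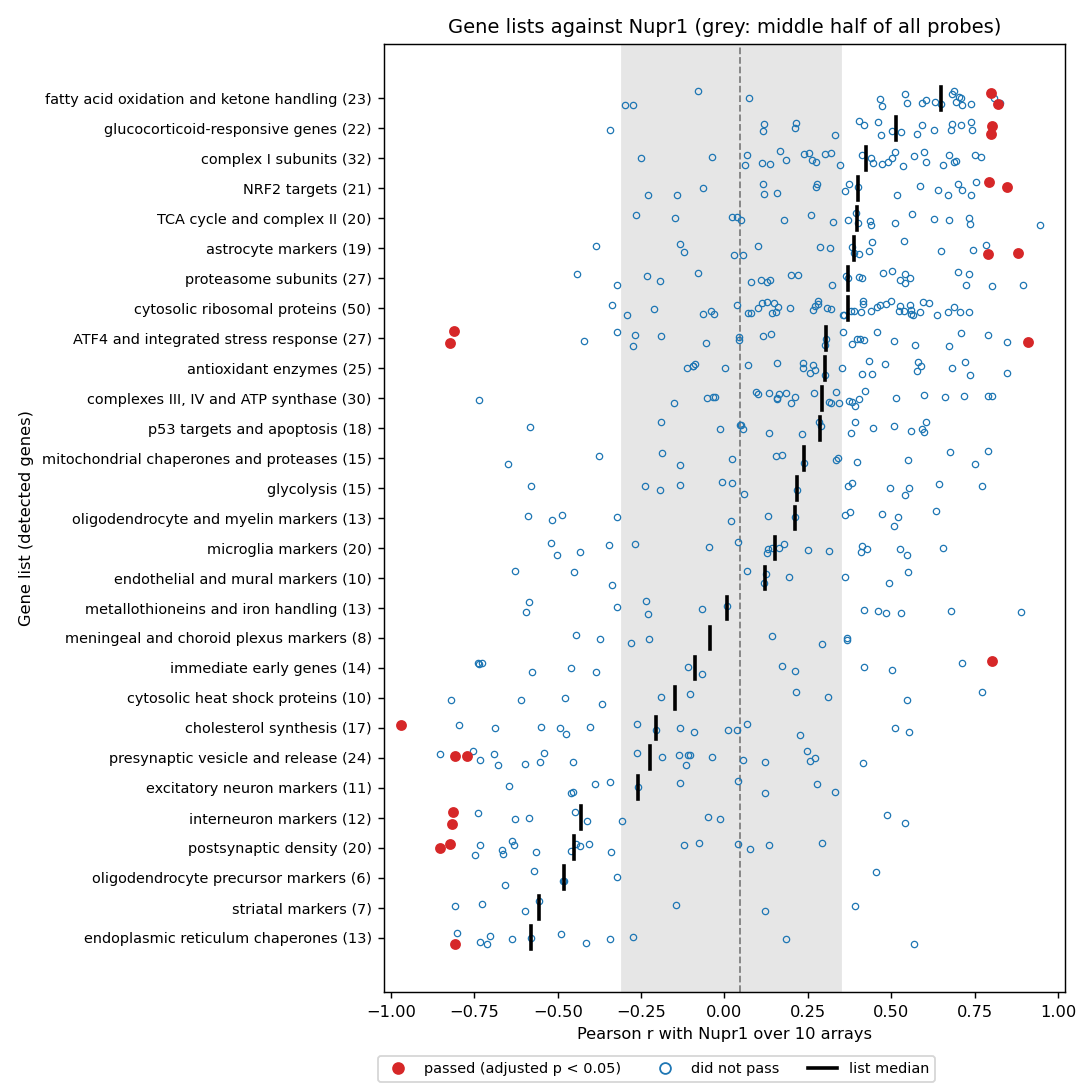
Pearson r with Nupr1 of each detected gene in 29 gene lists, 1 probe per gene, with list medians as black bars, called genes in red and the band between the lower and upper quartile of all probes (-0.306 to 0.349) in grey. Numbers in parentheses are detected genes. The fatty acid list lies highest at a median of 0.651 and the endoplasmic reticulum chaperones lowest at -0.580.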

How the data were processed

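Per the labels' protocols, Trizol-extracted RNA went through 1 round of amplification and biotin labelling before hybridization on Illumina MouseRef-8 arrays. The authors deposited the average bead intensity of 25697 probes on 50 arrays, per the file headers, and a table of processed log2 values. The software and the genome build of the probes are not named by the sources used here. The file had no detection p and no negative controls, so the background was the lower peak of each array's signals, and a probe above it by 1.645 standard deviations counted as above background.

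For the 10 arrays, intensities were corrected with the normal-exponential model (all probes, offset 16), quantile normalized and log2 transformed in limma 3.58.1 (R 4.3.3). Slopes on the Nupr1 log2 level were fitted to 11069 probes above background on at least 5 arrays, excluding Nupr1, with empirical Bayes moderation and Benjamini-Hochberg adjustment over all of them. Correlations had two-sided permutation tests (100000 resamples, SciPy 1.17.1; exact below 10 arrays). Symbols were updated through RefSeq (96.5% of probes matched). Gene counts in lists used the probe of highest mean per gene.

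The named genes were Nupr1, Sod2, Hmox1, the 12 highest and 12 lowest r among probes above background on all arrays, the 6 largest slopes each way, and the 3 smallest p in each of 32 lists. A few others were named as list members or after their values were seen. The Nupr1 axis, the gene lists and the rule were chosen with earlier results of these data known. The number of arrays limits the precision, and each array was an individual mouse.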

Additional observations from a re-analysis of the deposited data

Results flagged for a closer look

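Of 122 measures tested for a single mouse far from the other 9, 6 had a gap between the outermost and the nearest value above the critical value of Dixon's test. Chance passes this limit in about 1 of 20 groups, and 6 of 122 is near that share. The number of probes above background was far lowest on HKO-5 (10123, gap 0.484 of the range), the mouse with the most Nupr1. Vip, an interneuron peptide, was high on HKO-7 alone (7.69 against at most 6.82, gap 0.702), and so was Ebp, a sterol isomerase (6.97, gap 0.572). Atp5j, a subunit of ATP synthase, was low on HKO-7 (11.27, gap 0.536). Cdkn1a, the cell cycle inhibitor p21, was high on HKO-1 (8.52 against at most 7.17, gap 0.467), and Fezf2, a factor of deep-layer neurons, was low there (5.47, gap 0.496).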

How the results depend on the processing

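The count of 334 called probes was 85 with chip as a fixed factor, 538 with chip effects over all 50 arrays removed, 672 with median scaling, 2 with position as a covariate and 0 with the number of probes above background as a covariate or without the 2 mice farthest in Nupr1. Without 1 mouse it was 0 to 571. It lay within 1.5 times of 334 under the other settings, from 284 with median signal as a covariate to 384 with Ddx3y as a covariate, the only setting added after the data were seen. The authors' processed values gave 325, of which 272 were shared. Nupr1 against the number of probes above background was -0.678 without the 2 farthest mice (exact permutation p = 0.0718). Against position r was -0.718 without the 2 dimmest arrays (exact p = 0.0476), and against the first component -0.559 without the 2 farthest mice (exact p = 0.148). Without 1 mouse these relations gave r of -0.934 to -0.770, -0.711 to -0.310 and -0.911 to -0.603. The genes named for their r or slope, the called list members and Sod2 were followed over the settings. Of these pairs of a gene and a setting, 1031 kept their side of the threshold, 347 lost the call and 13 gained it. No called slope changed sign; the Sod2 slope, not called, did. No paired analysis was possible because replicate numbers within 1 group pair no mice; mice sharing a chip were compared. Signal over background limits Hmox1, which was not fitted.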

Other observations

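Some of the most variable transcripts did not follow Nupr1. Csrp1, a LIM domain protein, had a standard deviation of 1.58 log2 units over the 10 mice and r = -0.0657, and the sodium channel Scn1a had 1.01 and r = -0.132. Mbp, the myelin basic protein, had 0.88 and r = 0.262. The Y-linked Ddx3y lay at 5.20 to 5.42 on HKO-2, HKO-4 and HKO-5 and at 7.19 to 8.25 on the other 7 mice, and its r with Nupr1 was 0.0686 (adjusted p = 0.927).

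The words transmembrane, solute carrier, receptor, channel, cadherin or ATPase stood in the array's own gene definitions of 19.8% of the 268 falling probes, 6.06% of the 66 rising probes and 7.21% of all 11069. A second set, mitochondrial or peroxisomal words, stood in 0.373% of the falling probes, 3.03% of the rising probes and 1.6% of all. Both sets of words were chosen after the genes had been seen and the shares were not tested.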
